A study of Mus musculus with 45 samples.

Results

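Cytoplasmic ribosomal protein genes were followed in neural tube organoids grown from mouse embryonic stem cells with and without retinoic acid (RA). A gene belonged to the set when its symbol carried the Rpl, Rps, Rplp or Rpsa form of a cytoplasmic ribosomal protein, pseudogene symbols with a -ps ending left out, and when its mean over the 45 libraries was at least 10 CPM, the read count scaled to library size. Of 54532 genes in the count table, 89 had such a symbol and 82 passed the level. They comprised 45 genes of the large (60S) subunit, 34 of the small (40S) subunit and the 3 stalk genes Rplp0, Rplp1 and Rplp2. GENCODE lists 80 of the 82 as protein coding and the other 2, Rps4l and Rps3a3, as processed pseudogenes, which are copies made from a spliced mRNA.

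The ribosome joins a small subunit, which reads the mRNA, to a large subunit, which makes the peptide bond. Each ribosomal protein is used in one copy per ribosome, apart from the stalk proteins, and the genes are scattered over the genome yet usually expressed together. Most of their mRNAs begin with a run of pyrimidines at the 5′ end, the TOP motif, through which mTOR signalling adjusts their translation. A few genes have paralogs that replace the usual protein in certain tissues, and some of these paralogs, such as Rpl10l and Rpl39l, are known for their use in male germ cells.

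The organoids grew clonally from wild-type R1 cells, 1 male embryonic stem cell line, in Matrigel in N2B27 medium. At day 2 the medium was replaced by N2B27 alone (untreated) or with 250 nM all-trans retinoic acid (RA-treated), and whole cultures of organoids were collected at day 2, 8 h and 18 h later and then every 12 h up to 78 h (30, 42, 54 and 66 h), with 3 biological replicates for each of the 15 populations. The treatment protocol in the labels writes 250 µM and lists partly other hours, and the titles and the design text are followed here. RA drives the posterior neural identity of such organoids. Since all libraries come from 1 cell line and from whole cultures, fewer cells of a type and less RNA per cell cannot be told apart.

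Library totals ran from 17298632 to 39688686 counts. The 6 listed RA response genes summed to between 1204 and 1234 CPM in RA-treated organoids at 18 h and to between 23.1 and 26.9 CPM in untreated ones, so the arms there matched their labels. The neuroepithelial markers Sox1, Sox2, Pax6, Nes, Cdh2, Hes5 and Fabp7 had counts in every population. Their sum ran from 464 to 479 CPM at day 2, from 979.9 to 1107 CPM in untreated organoids at 78 h and from 1160.0 to 1325 CPM in RA-treated ones. They did not all move together: at 78 h 5 of the 7 were higher with RA and 1 lower (25.4% and 21.5% of all genes). Sox1 averaged 94.7 CPM with RA and 166 CPM untreated there. In 6 libraries (the whole untreated 30 h population, replicates 1 and 3 of its RA-treated counterpart, and RA 8 h replicate 3) the mean of 4 Y-linked genes was 1.22 to 3.73 CPM, against 22.6 to 89.9 CPM in the other 39. RA 8 h replicate 3 was also the highest for mitochondrially encoded genes. RA 30 h replicate 2 was the only RA-treated library of its time with the usual Y-linked level, and it had the highest share of ribosomal protein counts of all 45. The counts and medians at 8 h and 30 h are therefore given with and without these 2 libraries, as are the values of single genes where these libraries decide them. Library numbers in the titles fall into an earlier and a later series. All libraries of 66 h and 78 h, RA 30 h replicates 2 and 3, untreated 54 h replicate 3 and day 2 replicate 3 carry later numbers, so that time and number series cannot be fully told apart in the comparison of 78 h with day 2. With the earlier numbers alone the members' median was -0.36 at 30 h, where this leaves 1 RA-treated library and gives a value with no test, and -0.22 at 54 h, with 49 of the 82 called lower with RA there (21.5% of genes).

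Promoter windows were searched for short motifs. RefSeq windows of GRCm38.p6, from 250 bases before to 50 after the start, could be matched for 60 of the 82 genes (71 windows). CCGGAAG, the core bound by ETS factors, was found on either strand in 36.6% of these windows, against 8.86% of all 32851 windows. The pyrimidine runs CTTTCC and CTCTTTC on the strand of the gene were found in 38.0% and 21.1%, against 14.1% and 3.99% of all windows, and these 2 motifs can overlap. The E-box CACGTG, on either strand, was in 11.3% against 7.15%, and TATAAA in 9.86% against 13.6%. Median GC content was 58.7% in the windows of the ribosomal protein genes and 52.7% in all, and its part in these shares was not tested.

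The stretch from 45 bases before the start to 15 after it is printed for 4 genes that hold these motifs, and for 2 pairs of a gene and its paralog whose RNA moved apart, described with the paralogs. Capitals mark CCGGAAG on either strand and CTTTCC or CTCTTTC on the strand of the gene. Positions are in GRCm38.p6.
Rpl28 (large subunit, chr7:4792920-4792979, plus strand): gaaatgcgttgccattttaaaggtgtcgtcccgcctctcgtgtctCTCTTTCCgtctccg
Rpl38 (large subunit, chr11:114668535-114668594, plus strand): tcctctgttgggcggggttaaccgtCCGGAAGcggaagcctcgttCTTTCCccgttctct
Rps10 (small subunit, chr17:27635230-27635289, minus strand): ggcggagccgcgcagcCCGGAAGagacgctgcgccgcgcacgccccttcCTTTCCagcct
Rpl4 (large subunit, chr9:64173342-64173401, plus strand): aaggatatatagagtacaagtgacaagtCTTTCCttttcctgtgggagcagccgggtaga
Rpl22 (large subunit, chr4:152325681-152325740, plus strand): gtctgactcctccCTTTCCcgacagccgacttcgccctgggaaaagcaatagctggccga
Rpl22l1 (paralog of Rpl22, chr3:28805463-28805522, plus strand): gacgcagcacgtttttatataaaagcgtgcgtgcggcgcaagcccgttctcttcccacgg
Rpl10 (large subunit, chrX:74270771-74270830, plus strand): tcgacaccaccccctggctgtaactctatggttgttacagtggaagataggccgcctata
Rpl10l (paralog of Rpl10, chr12:66284387-66284446, minus strand): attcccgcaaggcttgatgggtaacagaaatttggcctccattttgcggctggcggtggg
The genes lie on 19 chromosomes, with 14 on chromosome 7 and 4 on the X. The longest coding sequence of the 80 coding genes runs from 138 to 1257 bases, with a median of 462.

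Members differed widely in level. Means over the 45 libraries ran from 13.9 to 2373 CPM, with a median of 422 CPM, and 78 of the 82 were at 100 CPM or more. The highest were Rpl4 at 2373 CPM, Rps3 at 1789, Rpl8 at 1360.0, Rplp1 at 1297 and Rpl7 at 1282 CPM. Per kilobase of merged exon, Rplp1 led with 2607 CPM, ahead of Rpl4 with 1186 CPM, and Rps10 was lowest with 6.02 CPM. Rps10 was also the member nearest to the level that decided membership, at 13.9 CPM, and the nearest gene outside was Rpl39l at 6.08 CPM. Rpl24, whose protein is a standard part of the large subunit, stood at 1.00 CPM and is no member. It shared 47.0% of its exon bases with Gm28037 on the same strand, and since the treatment of shared reads is not given, its level is uncertain. Processed copies of ribosomal protein genes can share reads with their parents: 61 members had at least 1 row of their own name with a -ps ending among 300 such rows, these rows held between 0.0243% and 0.0373% of counts, and how the authors treated reads that map to several places is not given in the sources used here. Rps10 shared 20.6% of its exon bases with the readthrough gene RPS10-NUDT3 on the same strand. In all, 26 members shared some exon bases with a gene on the same strand, none over 50%, and 19 with a gene on the opposite strand.

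RA-treated organoids gave a smaller part of their counts to ribosomal proteins. At 42 h the 82 genes took between 3.79% and 3.91% of counts in the RA-treated libraries and between 4.28% and 4.76% in the untreated ones, and at 78 h between 3.66% and 4.03% against between 4.34% and 4.91%. The arms did not overlap at 42, 54, 66 or 78 h. At day 2 the share was 4.58% ± 0.28 (SD, n = 3), and it stayed between 4.43% and 4.76% on average in untreated organoids at all 7 times. At 8 h the means were 4.48% ± 0.23 in RA-treated and 4.58% ± 0.34 in untreated organoids, less apart than the replicates. At 18 h the highest RA-treated library (4.30%) lay above the lowest untreated one (4.28%). At 30 h RA-treated replicate 2 was at 5.65%, above all 3 untreated libraries, which ran from 4.55% to 4.91%, and the other 2 RA-treated libraries, the lowest at 3.96%, were below them.

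**Figure D1:**
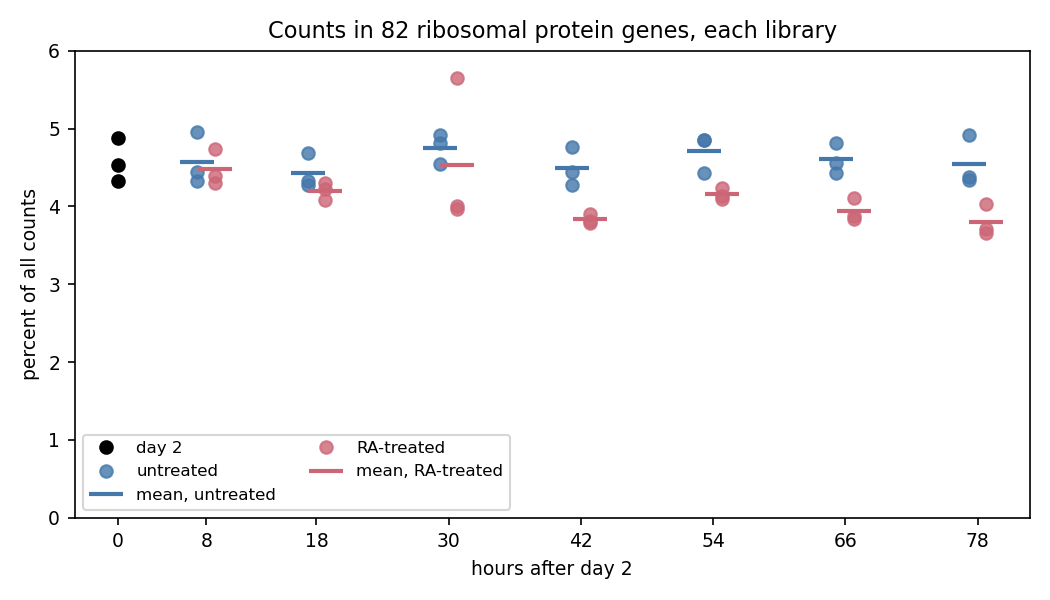
Percent of all counts in the 82 ribosomal protein genes (y axis) against hours after day 2 (x axis); each point is 1 library and each bar the mean of 3. RA-treated points lie below untreated ones at 42, 54, 66 and 78 h, and 1 RA-treated library at 30 h stands at 5.65%.

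Gene by gene, edgeR's quasi-likelihood test, its p-values adjusted over all genes tested by the Benjamini-Hochberg method, put 74 to 78 of the 82 members lower with RA at 42, 66 and 78 h, and 58 at 54 h. A gene is called here at an adjusted p under 0.05, with no minimum fold change, and levels of single libraries are CPM scaled by the TMM method over all 45 libraries. Shares and spreads of all genes are not matched to the level of the members. The part of level in the counts called was not tested. At 42 h 78 of the 82 members were lower (23.7% of 16508 genes were) and 0 higher (27.1% of all genes), with 0 members higher also at an unadjusted p under 0.05 and by DESeq2. The members' median log2 fold change was -0.28, a level 17.9% below untreated, where the median of all genes was 0.01. At 54 h 58 were lower (24.7% of genes) and 0 higher (26.9%), with a median of -0.23. The higher count there was also 0 at an unadjusted p under 0.05 and by DESeq2. Without RA 54 h replicate 2 the lower count was 39 (20.4% of genes). At 66 h 77 were lower (22.8% of 16993 genes) and 1 higher (24.3%), with a median of -0.27. Without RA 66 h replicate 2 the count of lower members was 63 (17.5% of genes). At 78 h 74 were lower (21.5% of 17059 genes) and 2 higher (25.4%), again with a median of -0.28. This lower count fell to 52 (16.1% of genes) without RA 78 h replicate 2. At 42 h the shift was narrow as well as small. The middle 50% of members lay between -0.33 and -0.25 at 42 h, and the standard deviation of their log2 fold changes was 0.08 where that of all genes was 0.91. At 54, 66 and 78 h the members' standard deviation was wider, at 0.12, 0.14 and 0.19, against 0.92, 0.85 and 0.87 for all genes.

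The earlier times were less uniform. At 8 h 0 members were lower (5.25% of 15836 genes) and 0 higher (5.96%), with 0 in either direction at an unadjusted p under 0.05 and by DESeq2. Without RA 8 h replicate 3, the library with low Y-linked counts, 10 were called lower at 8 h, a share below the 16% of 16329 genes called lower there, and the median moved from -0.07 to -0.15. Leaving out other single libraries moved it as well, to -0.12 without untreated replicate 1, -0.013 without untreated replicate 3, and -0.036 and -0.046 without RA-treated replicates 1 and 2. These 10 were Rps24, Rpl14, Rpl22, Rps4x, Rps27l, Rps19, Rpl37a, Rps10, Rpl35 and Rpl27. At 18 h 60 were lower (26.1% of 16508 genes) and 1 higher (28.9%), with a median of -0.19. The 1 higher gene, Rpl10l, was no longer called without any 1 of untreated replicate 1 and RA-treated replicates 2 and 3. At 30 h 15 were lower (12.7% of 16631 genes) and 0 higher (16.2%), with a median of -0.18. At an unadjusted p under 0.05, 1 was higher at 30 h, and DESeq2 also called 1 higher. Without RA 30 h replicate 2 the count of lower members rose to 77 (26.9% of 16832 genes) and the median moved to -0.37, with 1 called higher (28.5%). Without RA-treated replicate 1 or 3 the median was -0.11 or -0.10. The count at 30 h was between 6 and 9 without any 1 of the other 5 libraries. That was 7.32% to 11% of members, near the 6.56% to 10.4% of all genes lower in the same fits.

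**Figure D2:**
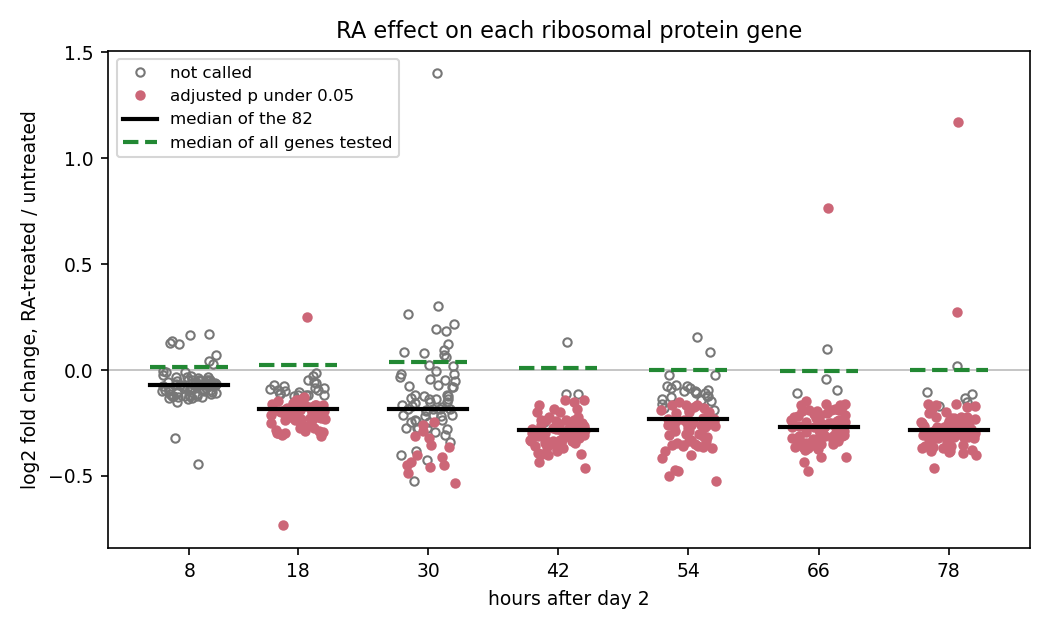
Log2 fold change of RA-treated over untreated organoids (y axis) for each of the 82 genes at each time (x axis, hours after day 2); filled points have an adjusted p under 0.05, black bars are the median of the 82 and green dashed bars that of all genes tested. Nearly all points lie below 0 at 18 h and from 42 h on. At 30 h 68 of the 82 do, the spread is the widest and the highest point is at 1.40. Rpl10l stands far above the rest at 78 h.

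How the libraries are scaled matters for so small a change. With library totals in place of TMM, 14 members were lower (17.5% of 16508 genes) and 1 higher (37.8%) at 18 h, and the members' median was -0.07. At 30 h 6 were lower (8.33% of 16631 genes). At both times the members' share called lower was near or below that of all genes under this scaling. That scaling raised the median of all genes to 0.14 at 18 h and to 0.18 at 30 h. Relative to all genes, the members' median at 18 h was -0.21 with TMM and -0.21 with library totals, and at 30 h -0.22 with both. At 42, 54, 66 and 78 h library totals left 70, 43, 65 and 68 members lower, against 19.4%, 20.7%, 18% and 20.1% of all genes. Among the genes described below, they ended the calls at 18 h of Rpl4 (-0.045), Rplp1 (-0.050), Rplp2 (-0.038), Rpl7, Rpl3, Rpl22, Rps4x, Rps24 and Rpl26, that of Rps15a at 42 h (-0.17) and that of Rps20 at 54 h (-0.12). TMM factors computed from non-members only gave medians of -0.19 at 18 h and -0.29 at 42 h.

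Of the 82 members, 40 were called lower at each of 18, 42, 54, 66 and 78 h, 14 at those times and 30 h as well, and 52 at each of the last 4 times. Of all genes tested at the times in question, 7.7% of 15447, 5.3% of 15314 and 11.6% of 15867 were called lower at each of them. Only Rpl10l was called lower at none of the 7 times, and Rpl10l and Rps4l were the 2 members called higher at any. Rpl7l1 was called lower once, at 18 h. Over the 45 libraries the median Pearson correlation between 2 members' log2 levels was 0.75, and 0.73 after the mean of each population was taken away. Those points share libraries, depth and scaling. Rpl22l1 was the 1 member whose median correlation with the others was below 0, at -0.05, and the next lowest were Rps15a at 0.22 and Rpl10l at 0.29.

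**Figure D3:**
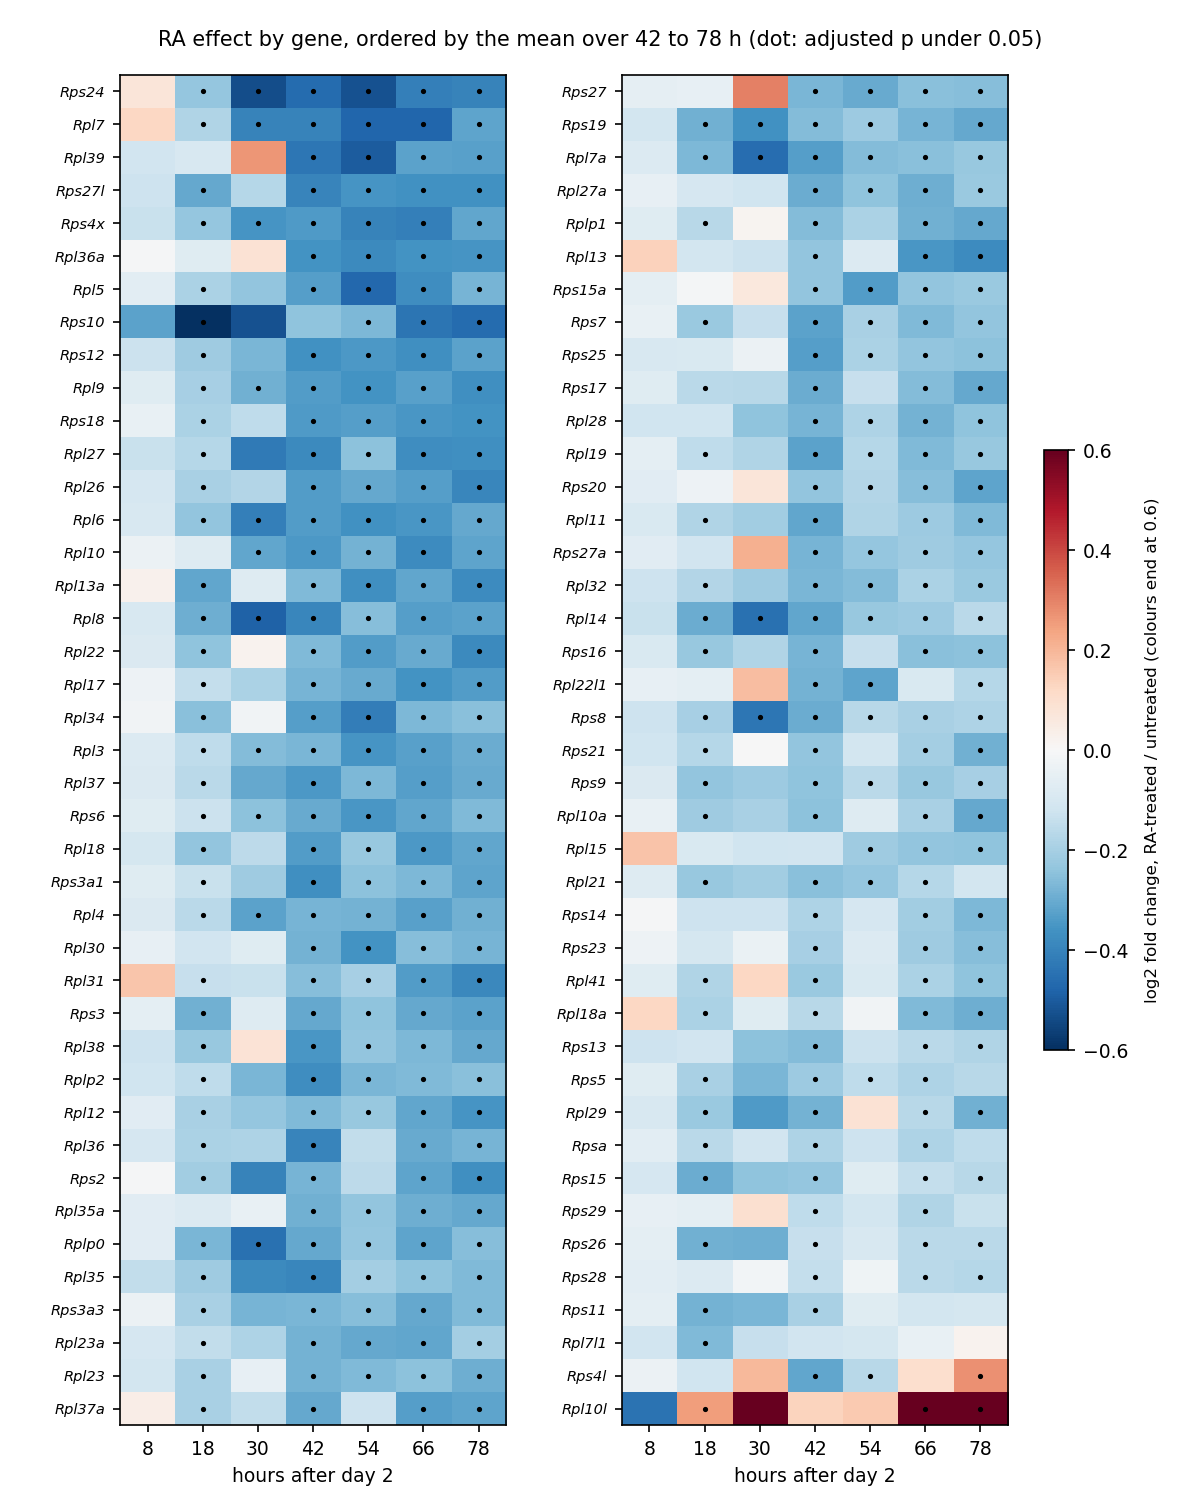
Log2 fold change of RA-treated over untreated organoids for each gene (rows, split over 2 panels and ordered by the mean over 42 to 78 h) at each time (columns, hours after day 2), with blue lower and red higher with RA; dots mark an adjusted p under 0.05. The columns from 42 h on are blue almost throughout, and the last rows, Rpl7l1, Rps4l and Rpl10l, depart from the rest.

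In the small subunit, 23 of 34 members were lower with RA at 18 h, 33 at 42 h and 29 at 78 h, with medians of -0.19, -0.27 and -0.26. Rps3, which lies at the mRNA entry channel, was the most abundant. It stood at 1822, 1695 and 1824 CPM in untreated organoids at 42 h and at 1445, 1439 and 1464 CPM in RA-treated ones, with no overlap (log2 fold change -0.31, SE 0.05, adjusted p = 0.00044). At 30 h its RA-treated libraries were at 1421, 3085 and 1441 CPM, so that replicate 2 was above and the others below all untreated ones, and the log2 fold change was -0.08 (adjusted p = 0.87). Without replicate 2 it was -0.55 (SE 0.06, adjusted p = 3.4e-07).

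Rps24, a protein of the small subunit that is mutated in some cases of Diamond-Blackfan anaemia, was the most lowered member at 42 h. It measured 775, 712 and 703 CPM untreated and 506, 537 and 557 CPM with RA (log2 fold change -0.46, SE 0.06, adjusted p = 0.00012), and the 2 arms were apart. At 78 h it was at -0.40 (adjusted p = 0.00061). It was also the lowest at 54 h, at -0.52. At 30 h it stood at -0.53, and at -0.46 without RA-treated replicate 2, where Rpl27 (-0.67), Rps10 (-0.67), Rps2 (-0.63) and Rpl8 (-0.59) were among those lower. At 8 h, RA replicate 3 had 973 CPM where the other 2 RA-treated libraries had 615 and 593 CPM.

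Rps10 showed the largest early difference. Untreated libraries at 18 h had 13.3, 15.9 and 13.5 CPM and RA-treated ones 8.14, 8.26 and 9.10 CPM, again without overlap (log2 fold change -0.73, SE 0.10, adjusted p = 5.4e-05). At 42 h the 12.2, 15.02 and 13.0 CPM of RA-treated organoids overlapped the 15.5, 14.7 and 17.2 CPM of untreated ones (-0.24, adjusted p = 0.067). The difference returned at 66 h (-0.44, adjusted p = 0.0018) and 78 h (-0.46, adjusted p = 0.006). Its raw counts were between 185 and 597 per library. Rps27l, a paralog of Rps27 and a known p53 target, fell by 0.31 on the log2 scale at 18 h (adjusted p = 0.0017), while Rps27 itself stood at -0.05 there (adjusted p = 0.53). Both were lower at 42 h, at -0.40 for Rps27l and -0.27 for Rps27. Rps20 and Rps15a had the highest values of the small subunit at 18 h, -0.03 and -0.01, neither called, and both were called lower from 42 h on. The call of Rps15a at 42 h was lost without RA-treated replicate 1 or 2, and that of Rps20 at 54 h without untreated replicates 1 or 3 or RA-treated replicates 2 or 3.

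In the large subunit without the stalk, 34 of 45 members were lower with RA at 18 h, 42 at 42 h and 42 at 78 h, with medians of -0.18, -0.29 and -0.30. Rpl4 was the most abundant member. At 18 h it stood at 2495, 2524 and 2489 CPM untreated and at 2225, 2232 and 2224 CPM with RA, so that a difference of -0.16 (SE 0.04, adjusted p = 0.0071) separated the arms under TMM. At 78 h it had 2439, 2476 and 2441 CPM against 2052, 1995 and 1982 CPM (-0.29, SE 0.05, adjusted p = 0.00081). Rpl8, near the peptidyl transferase centre, had 1429, 1357 and 1452 CPM untreated and 1083, 1104 and 1059 CPM with RA at 42 h, with no overlap (-0.39, SE 0.05, adjusted p = 6.5e-05).

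Rpl7 kept a large difference at the middle times. At 66 h it was at 1357, 1436 and 1379 CPM untreated and at 1008, 969 and 1061 CPM with RA (-0.47, SE 0.05, adjusted p = 2.1e-05), well apart. RA 8 h replicate 3 had 1879.9 CPM of it, against 1189 and 1148 CPM in the other 2 libraries of that population. Rpl39, a short protein that lines the exit tunnel, was among the 3 lowest at 42 h, at -0.43 (adjusted p = 0.00093), after -0.09 at 18 h (adjusted p = 0.26). Rpl13a, also known from the interferon response, was among the 3 lowest at 18 h, at -0.31 (adjusted p = 0.00021). Rpl26, which binds near the tunnel exit, was among the 3 lowest at 78 h, at -0.39 (adjusted p = 0.00037). Rpl15 was among the 3 highest at 42 h, at -0.11 (adjusted p = 0.084), and was lower at 78 h (-0.24, adjusted p = 0.0045).

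All 3 stalk members, which recruit the elongation factors, were called lower with RA at 18, 42, 66 and 78 h, and 2 of 3 at 54 h. The calls of Rplp1 and Rplp2 at 18 h were lost without untreated replicate 3 or RA-treated replicates 2 or 3, and that of Rplp1 also without untreated replicate 2. At 54 h that of Rplp0 was lost without RA-treated replicate 2, and at 78 h that of Rplp2 without RA-treated replicate 2. Rplp0, the base of the stalk, had 887, 933 and 893 CPM untreated and 747, 733 and 754 CPM with RA at 18 h, with no overlap (-0.27, SE 0.05, adjusted p = 0.00032). Rplp2 went from 685, 646 and 688 CPM to 517, 519 and 535 CPM at 42 h (-0.37, SE 0.05, adjusted p = 0.00012). Rplp1 was at -0.26 at 42 h (adjusted p = 0.0012) and at -0.19 at 54 h (adjusted p = 0.056). At 30 h RA replicate 2 had 2093 CPM of Rplp1, against 1089.8 and 1111 CPM in replicates 1 and 3, and without it the log2 fold change was -0.37 (adjusted p = 6.6e-05).

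RA 30 h replicate 2 was the highest of its 3 libraries for 75 of the 82 members, and for 4397 of the 9771 genes of at least 10 CPM. Its ratio to the mean of the other 2 had a median of 1.43 over the members, from 0.84 for Rps24 to 3.38 for Rpl10l, and a median of 0.99 over the 9771 genes of at least 10 CPM on average. Rpl38 and Rps27a were at 2.48 and 2.20. Without this library, the members not called lower at 30 h were Rps15a (-0.08), Rpl15 (-0.10), Rpl39 (-0.12) and Rps27 (-0.04), with Rpl10l higher (0.56, adjusted p = 0.019).

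The RA effect was also compared between 42 h and 18 h in 1 model over the 12 libraries. It was more negative at 42 h for 7 members (13% of 17496 genes were) and more positive for 2 (14.4%), with a median difference of -0.09 (-0.044 without untreated 18 h replicate 1). The share called was thus below that of all genes in both directions. Rpl39 (-0.32, adjusted p = 0.044), Rpl10 (-0.25, adjusted p = 0.0064) and Rpl7 (-0.20, adjusted p = 0.046) were among the 7, and Rps10 (0.51, adjusted p = 0.016) and Rpl7l1 (0.17, adjusted p = 0.048) were the 2. The lower count was 6, 7 and 8 without RA-treated 18 h replicate 3, untreated 42 h replicate 2 and RA-treated 42 h replicate 3, and between 1 and 4 without any other library. The higher count was between 0 and 3 without single libraries, and 0 without RA-treated 42 h replicate 2.

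Against day 2, untreated organoids changed little. At 18 h 28 members were lower (20.7% of 16047 genes) and 1 higher (21.5%), with a median of -0.11. At 42 h 32 were lower (31.6% of 16376 genes) and 5 higher (33.7%), with a median of -0.14. By 78 h 38 were lower (37.2% of 16681 genes) and 6 higher (40%), with a median of -0.15. The medians at 18 h and 42 h were -0.071 and -0.075 without day 2 replicate 3. The lower counts rested in part on single libraries. At 18 h the count was 15 without day 2 replicate 3 and 13 without untreated replicate 1 or replicate 3. At 42 h the count was 19 without untreated replicate 2. In these 4 fits 18.3%, 15.9%, 15.9% and 23.2% of members were lower, against 19.4%, 16.7%, 16.4% and 29% of all genes. The members' shares were thus near or below those of all genes. The higher count at 78 h was 2 without day 2 replicate 2 (38.2% of genes). With library totals the untreated splits became 13 lower (15.7% of genes) and 4 higher (26.6%) at 18 h, 10 lower (25.7%) and 9 higher (39.3%) at 42 h, and 20 lower (31.1%) and 13 higher (45.7%) at 78 h, so that the members' lower shares were near or below those of all genes. The median of all genes rose to 0.12 at 42 h and 0.16 at 78 h under that scaling. Relative to all genes, the members' median was -0.15 at 42 h under TMM and also under library totals, and at 78 h it was -0.18 under TMM and -0.17 under library totals.

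RA-treated organoids lay further from day 2. At 18 h 79 of 82 members were lower (33.1% of 16460 genes) and 1 higher (35.4%), with a median of -0.33. At 42 h 76 were lower (36.4% of 16587 genes) and 2 higher (38.6%), with a median of -0.44. At 78 h 78 were lower (37.3% of 16892 genes) and 2 higher (40.8%), with a median of -0.46, a level 27.1% below day 2. Library totals gave 41 lower (21.9% of genes) and 2 higher (46.3%) at 18 h, 67 lower (28.7%) at 42 h and 64 lower (30.7%) at 78 h. The members higher in RA-treated organoids were Rpl22l1 at 18 h, and Rpl22l1 and Rps15a at 42 h and at 78 h. The call at 18 h was absent without day 2 replicate 1 or RA-treated replicate 1, and 1 of the 2 at 78 h without day 2 replicate 1 or replicate 2. These comparisons share the day 2 libraries, and those at one time share an arm with the RA comparison.

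A few paralogs moved far more than the set. Rpl10l, an intronless copy of Rpl10 on chromosome 12 that germ cells use when the X is silent, had the lowest value of all members against day 2. It was above the level for membership only through the early populations, with means of 80.7 CPM at day 2 and 29.8 to 58.3 CPM at 8 h and 18 h, and between 3.26 and 9.70 CPM in every population from 30 h on, so its course is tied to the rule and is given as a description. It had 81.4, 76.8 and 83.9 CPM at day 2, 28.5, 28.7 and 32.2 CPM in untreated organoids at 18 h, and 3.98, 3.24 and 2.55 CPM at 78 h. Relative to day 2 its log2 fold change came to -1.41 by 18 h and to -4.61 by 78 h. Since the early populations admitted it to the set, no p-value is given for this fall. Rpl10 itself stood at 450.2, 417 and 410.2 CPM at day 2 and at 393, 379 and 384 CPM at 78 h untreated (-0.10, adjusted p = 0.1). As a part of Rpl10 within the same library, Rpl10l thus went from 19.0% ± 1.28 to 0.85% ± 0.17 (SD, n = 3). Counts of Rpl10l ran from 56 to 1986 per library.

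With RA the loss of Rpl10l was less complete. RA-treated libraries had 6.21, 7.54 and 7.37 CPM at 66 h, against 4.69, 4.62 and 2.96 CPM untreated, and the arms did not overlap (0.76, SE 0.18, adjusted p = 0.0053). At 78 h they had 8.79, 8.13 and 4.86 CPM against 3.98, 3.24 and 2.55 CPM, also apart (1.17, SE 0.23, adjusted p = 0.0016). Rpl10l was the 1 member past the study's thresholds, a log2 fold change beyond 1 and an adjusted p below 0.01, in any RA comparison by edgeR. The study itself used DESeq2 and asked for these thresholds at both 18 h and 30 h. By edgeR 0 members passed them at either of those times. The RA 8 h library with low Y-linked counts had 12.5 CPM of Rpl10l against 58.6 and 55.4 CPM in the other 2. The untreated libraries at 30 h, which also have low Y-linked counts, had 3.41, 3.42 and 4.08 CPM, below the 8.17, 7.66 and 9.19 CPM of untreated organoids at 42 h.

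Rps4l, a processed copy of the X-linked Rps4x, followed the same course at a higher level. It fell from 482, 449 and 545 CPM at day 2 to 215, 221 and 222 CPM at 42 h and to 137, 137 and 124 CPM at 78 h in untreated organoids (log2 fold change at 78 h -1.85, SE 0.07, adjusted p = 9.1e-13). Rps4x changed by -0.07 over the same span (adjusted p = 0.31), and Rps4l went from 42.9% ± 3.40 to 12.5% ± 0.86 of it. RA lowered Rps4l at 42 h, to 173, 185 and 177 CPM (-0.31, adjusted p = 0.00034), but at 78 h RA-treated organoids had 167, 165 and 151 CPM, above all 3 untreated libraries (0.28, SE 0.06, adjusted p = 0.0039). As a processed copy, Rps4l can share reads with Rps4x, and the values of both are uncertain to that extent.

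Rpl39l, just outside the level for membership, was above 10 CPM on average only at day 2 and 8 h. It went from 24.0, 24.7 and 24.6 CPM at day 2 to 1.76, 1.19 and 0.87 CPM untreated at 78 h (-4.26, adjusted p = 3.8e-13), whereas Rpl39 was at 0.06 over that span (adjusted p = 0.41). RA-treated organoids had 2.99, 1.70 and 1.43 CPM of it at 78 h, overlapping the untreated ones (0.72, SE 0.33, adjusted p = 0.091). Rpl7l1, a paralog of Rpl7 found in pre-ribosomes, declined from 290.2, 298 and 297 CPM to 187, 195 and 192 CPM (-0.58, adjusted p = 2.5e-08). RA-treated organoids had 193, 189 and 203 CPM of it at 18 h, below the 235, 232 and 239 CPM of untreated ones (-0.26, adjusted p = 0.00047), and at 78 h the 2 arms were alike in level, with 192, 195 and 196 CPM in RA-treated organoids (0.02, adjusted p = 0.73). Rpl3l, the muscle paralog of Rpl3, averaged 0.56 CPM over all libraries.

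**Figure D4:**
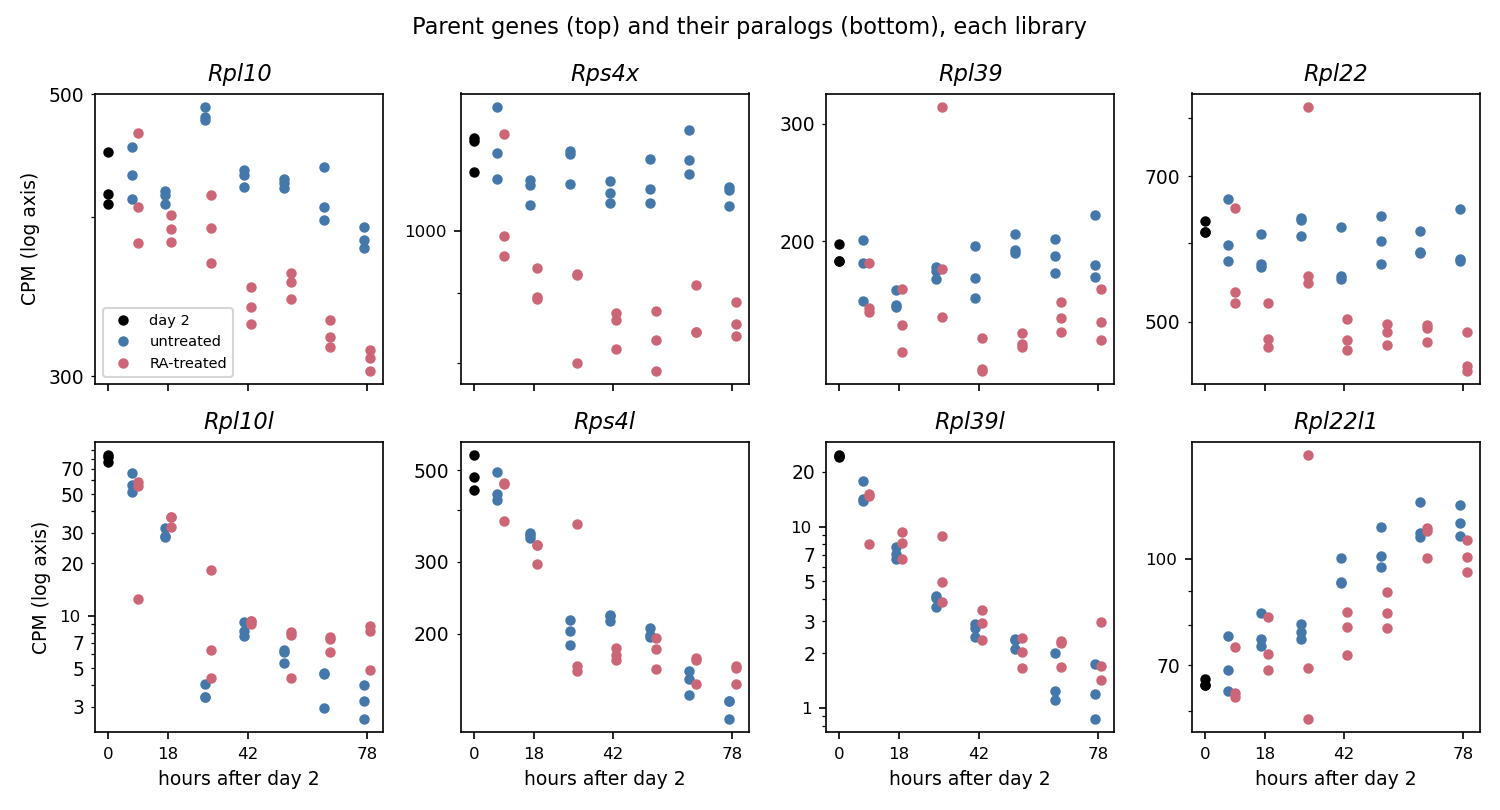
CPM scaled by TMM (y axes, logarithmic, with a range of its own in each panel) of 4 genes (top row) and their paralogs (bottom row) against hours after day 2; each point is 1 library. Rpl10l, Rps4l and Rpl39l decline from day 2 in both arms while Rpl22l1 increases, and the parent genes part by arm.

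Rpl22l1, the paralog of Rpl22 that is known to be repressed by it in some cells, took the opposite course. It measured 65.5, 66.7 and 65.5 CPM at day 2, 100.4, 92.2 and 92.8 CPM at 42 h and 120.3, 108 and 113 CPM at 78 h in untreated organoids, each time above the one before (log2 fold change at 78 h 0.83, SE 0.06, adjusted p = 7.6e-10). It also rose in RA-treated organoids, to 107, 95.8 and 101 CPM at 78 h (0.65, adjusted p = 5.2e-07). Rpl22 did not pass the test in untreated organoids (-0.0036 at 78 h, adjusted p = 0.96) and fell by 0.40 with RA (adjusted p = 1.3e-05). Rpl22l1 therefore went from 10.6% ± 0.23 of Rpl22 at day 2 to 19.0% ± 0.58 in untreated and 21.9% ± 0.43 in RA-treated organoids at 78 h. Between arms Rpl22l1 was lower with RA at 42 h, at 72.5, 79.5 and 83.6 CPM (-0.28, adjusted p = 0.0051).

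Rps15a, a protein of the small subunit, was the other member that rose in both arms. It had 310.5, 315 and 316 CPM at day 2, 443, 397 and 387 CPM at 42 h and 424, 379 and 394 CPM at 78 h untreated (0.39, adjusted p = 9.6e-06), and 355, 337 and 333 CPM at 78 h with RA (0.15, adjusted p = 0.013). Rpl31, Rps2, Rpl3 and Rps10 were also higher in untreated organoids at 78 h than at day 2, by 0.14 to 0.28.

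Other genes of protein synthesis were lower with RA as well, but on another time course. Of 67 listed ribosome biogenesis genes, which make and process ribosomal RNA, 15 were lower at 8 h, 64 at 18 h, 59 at 42 h and 33 at 78 h, and 0, 0, 0 and 3 were higher. Beside these stand 5.25%, 26.1%, 23.7% and 21.5% of all genes lower. Their median log2 fold change was -0.45 at 18 h, -0.63 at 30 h, -0.35 at 42 h and -0.14 at 78 h. Without RA-treated replicate 2 the median at 30 h was -0.74. Against day 2 the list's median was -0.69, -0.68 and -0.86 in RA-treated organoids at 18, 42 and 78 h, and -0.15, -0.35 and -0.69 in untreated ones, so that between 18 h and 78 h the untreated median changed more than the RA-treated one. The members' median over the same times was -0.19, -0.18, -0.28 and -0.28, so the 2 lists had crossed by 66 h (-0.21 and -0.27). Rrn3, which brings RNA polymerase I to the rDNA, and Polr1b, a subunit of that enzyme, were the lowest at 18 h, at -0.94 (adjusted p = 1.5e-08) and -0.72 (adjusted p = 1.3e-06). Dkc1 and Taf1b were the highest, at -0.05 and 0.02, neither called.

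Of 22 translation factors and other mRNAs known for a TOP start, 18 were lower at 18 h, 14 at 42 h and 13 at 78 h and 0 were higher, the medians being -0.25, -0.16 and -0.19 (26.1%, 23.7% and 21.5% of all genes were lower). Eef1d and Eif3l, of elongation and initiation, were the lowest at 18 h, at -0.51 and -0.49, and Eef1a1 and Tpt1 the highest, at -0.04 and 0.01, neither called. Of 17 regulators of translation, 8 were lower and 2 higher at 18 h (26.1% and 28.9% of all genes): Deptor, an inhibitor of mTOR, and Larp1, which binds TOP mRNAs, were the lowest (-0.62 and -0.40), and Rps6kb2 and Tsc1 the highest (0.28 and 0.38).

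The mitochondrial ribosome, the proteasome and respiratory complex I were read as other large assemblies. Of 77 mitochondrial ribosomal protein genes tested, 53 were lower and 2 higher with RA at 18 h, and 21 and 3 at 78 h, with medians of -0.22 and -0.02. For 38 proteasome genes the medians were -0.15 and 0.01, with 22 lower at 18 h and 2 at 78 h. For complex I they were -0.10 and -0.04, with 16 of 44 lower at 18 h and 10 of 45 at 78 h. At 78 h the median of the cytoplasmic ribosomal proteins was thus below those of these 3 assemblies, of ribosome biogenesis and of the translation factors. Of all genes 26.1% were lower at 18 h and 21.5% at 78 h: complex I stood near that share at 78 h and the proteasome below it. The differences between lists were not tested. Of the -ps rows that were tested at 18 h, 3 of 30 were lower and 1 higher, with a median of -0.19.

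**Figure D5:**
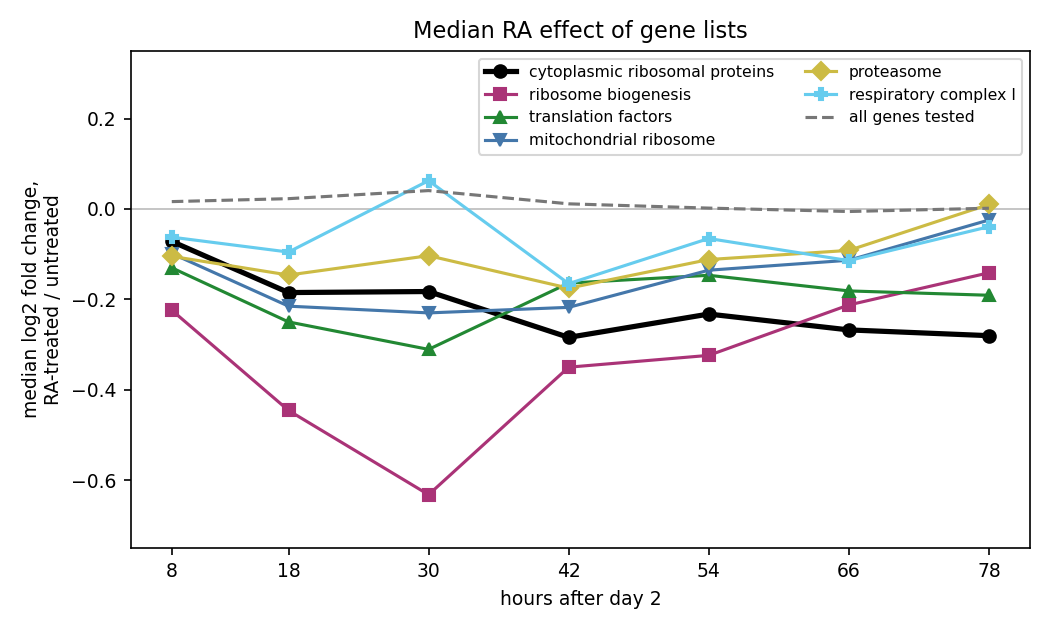
Median log2 fold change of RA-treated over untreated organoids (y axis) of 6 gene lists and of all genes tested (dashed) against hours after day 2. The RA against untreated median of ribosome biogenesis genes is -0.63 at 30 h and -0.14 at 78 h. That of the cytoplasmic ribosomal proteins is -0.28, -0.23, -0.27 and -0.28 at 42, 54, 66 and 78 h.

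Members with and without a promoter motif had similar medians. Members with CCGGAAG had a median of -0.32 at 42 h (25 genes), and those with a window but no match -0.28 (35 genes). For CTTTCC the medians at 42 h were -0.28 with (24 genes) and -0.31 without (36 genes), and for CTCTTTC -0.32 (13 genes) and -0.29 (47 genes). Across the 80 coding members, the length of the longest coding sequence and the RA effect had a Spearman correlation of 0.04 at 42 h and -0.002 at 78 h. It was -0.52 at 30 h, and -0.22 there without RA-treated replicate 2. These points share libraries and no test was made of them.

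Markers of other cell types moved with RA as well. The 7 listed pluripotency and epiblast genes, 5 of them lower and 1 higher at 18 h, summed to between 2224 and 2454 CPM at day 2. At 78 h they summed to between 557 and 674 CPM untreated and between 239 and 475 CPM with RA. At that time 4 were lower with RA and 1 higher, and Zfp42 averaged 60.9 CPM with RA and 38.1 CPM untreated. The 6 surface ectoderm genes summed to between 503 and 518 CPM with RA at 78 h, against between 55.3 and 64.7 CPM untreated, and the 6 endoderm genes to between 40.3 and 41.9 CPM against between 19.2 and 22.1 CPM. The 6 neuronal genes summed to between 356 and 391 CPM with RA and between 288 and 295 CPM untreated at 78 h. Their sum was smaller with RA at the 3 times before. It was between 115 and 125 CPM against between 245 and 285 CPM at 42 h. At 54 h it was between 118 and 123 CPM against between 269 and 306 CPM, and at 66 h between 234 and 258 CPM against between 289 and 306 CPM. Gene by gene these sums hid other moves. Of the 6, 4 were lower at 42 h and 1 at 54 h, with 0 higher (23.7% and 24.7% of all genes were lower). At 66 h and at 78 h 5 were higher and 1 lower (24.3% of all genes were higher at 66 h). At 78 h mesoderm genes summed to between 21.9 and 24.1 CPM against between 5.10 and 7.22 CPM, with 1 of the 6 at 0 counts in RA-treated organoids. Of the 4 mesoderm genes tested there, 2 were higher and 1 lower with RA. At 78 h 21.5% of all genes were lower and 25.4% higher. Their part in the ribosomal protein values was not tested.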

How the data were processed

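Poly(A) RNA from 45 organoid cultures was sequenced with a directional kit. The authors trimmed reads with Trim Galore 0.5.0, removed abundant sequences with Bowtie2 2.3.4.1, aligned to GRCm38 with STAR, counted reads per gene by featureCounts (Subread 1.6.2) and deposited these raw counts, with no normalization and no pooling of replicates. The strand setting and the treatment of reads mapping to several places are not given in the sources used here. Columns were matched to samples by the library number in the titles. Symbols, biotypes and exons came from a GRCm38 annotation and promoters from RefSeq on GRCm38.p6.

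Each comparison was fitted to its own 6 libraries (12 for the difference of effects) with edgeR 4.0.16 in R 4.3.3: filterByExpr (minimum count 10, minimum total 15), TMM factors and the quasi-likelihood test, with Benjamini-Hochberg adjustment over all genes tested and a call at an adjusted p under 0.05. Levels are CPM scaled by TMM over the 45 libraries, with a pseudocount of 1 for log2 levels in correlations. Genes named are the 5 most abundant members, the stalk genes, the paralog pairs, the 3 lowest and 3 highest at 18, 42 and 78 h, members past the study's thresholds, and the genes next to the CPM limit. Of other lists, the 2 lowest and 2 highest at 18 h are named. Rpl24, Rpl31, Rps2, Rpl3, Rpl38, Rps27a, Rpl27 and the members called without single libraries were named after their values were seen. The members and lists were chosen with earlier results of these data known. Alternatives were RLE factors, library totals, TMM from non-members, no filter, DESeq2 1.42.0, the replicate block, 1 fit of all 45 libraries, the study's thresholds, the earlier library numbers alone, and leaving out each library. The fits were tested on simulated data. Replicates are biological replicates by their labels, with cultures of 1 cell line. At 66 h the deviations of same-numbered libraries correlated above 0.1 in all 3 pairs, and at no other time. Library totals of 17298632 to 39688686 counts leave little counting error for most members, and the spread between replicates sets the precision.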

Additional observations from a re-analysis of the deposited data

Results flagged for a closer look

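For 9 members the effect of RA at 42 h was not that at 18 h by a test of the difference itself (quasi-likelihood test of edgeR, Benjamini-Hochberg adjustment over 17496 genes). On the log2 scale the effect at 42 h minus that at 18 h was -0.32 for Rpl39, -0.26 for Rpl36a, -0.25 for Rpl10, -0.22 for Rps3a1, -0.20 for Rpl7, -0.20 for Rplp2 and -0.19 for Rpl27, and 0.17 for Rpl7l1 and 0.51 for Rps10. All 12 libraries entered each value. Rps3a1 can share reads with the processed copy Rps3a3, and its value is uncertain to that extent. Of all genes tested, 13% had a more negative and 14.4% a more positive effect at 42 h. With the replicate block 1 member was called in each direction. Groups of 3 libraries were too small for a test of single outlying samples.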

How the results depend on the processing

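With 6 libraries a comparison, the members' medians stayed below 0 in every comparison and alternative run, while counts near the threshold moved. With library totals in place of TMM, 14 members were lower at 18 h (median -0.070), 6 at 30 h, and the medians at 42 h and 54 h were -0.22 and -0.18. Against day 2 library totals gave 4 higher and 13 lower in untreated organoids at 18 h, 9 and 10 by 42 h, 13 and 20 by 78 h, and 2 higher and 41 lower in RA-treated organoids at 18 h. That scaling raised the median of all genes in these comparisons, and relative to it the members' medians moved by less than 0.01. In these comparisons it raised the values of the members together, and 13 values of named genes near 0 changed sign by it: Rps3 at 30 h (0.067), Rpl7l1 at 30 h (0.0048), Rpl7l1 at 66 h (0.015), Rpl10 at 18 h (0.040), Rpl22l1 at 18 h (0.056), Rpl39 at 18 h (0.021), Rps27 at 18 h (0.068), Rps4l at 8 h (0.0049), Rpl13a at 30 h (0.062), Rps20 at 18 h (0.087), Rps15a at 18 h (0.10), Rpl15 at 18 h (0.024) and Rpl15 at 30 h (0.016). Rplp1 at 30 h became -0.0028 with RLE factors, -0.007 with no filter, -0.052 with the replicate block and -0.0087 with DESeq2, and Rpl22 at 30 h became -0.0014, -0.0046 and -0.0043 with no filter, the block and DESeq2. No filter and DESeq2 each called 1 member higher at 30 h, and DESeq2 called 0 higher in RA-treated organoids at 18 h against day 2.

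Beside counts of members from 1 fit of all 45 libraries stand shares of all genes. This fit gave 1 lower at 8 h (11.7%), and 29 lower (18.3%) and 0 higher (20.9%) at 18 h. At 30 h it gave 37 lower (20%) and 2 higher (27.6%), at 42 h 59 lower (17.9%), and at 54 h 37 lower (19.6%). At 66 h it gave 45 lower (15%) and 0 higher (19%), and at 78 h 53 lower (15.1%) and 1 higher (19.1%). Under the study's thresholds 0 members were called at 18, 30, 42, 54 and 66 h, and at 78 h 0 were lower and 1 was higher. Of all genes tested, these thresholds called 455 lower and 1348 higher at 18 h, and 688 and 1307 at 78 h. The contrast of the RA effects at 42 h and 18 h gave 1 higher with RLE factors, with no filter and with library totals. Library totals also gave 20 lower there (24.4% of members, 17% of all genes). With the replicate block, a paired fit on the number in the titles, the contrast gave 1 higher and 1 lower. Of 17496 genes it gave 2165 higher and 2024 lower. The block left 44, 13, 72, 65, 77 and 78 members lower at the times from 18 h on. Of all genes it left 3884, 2024, 3245, 4268, 4491 and 4265 lower. Those tested were 16508, 16631, 16508, 16413, 16993 and 17059. The cause of these changes was not tested.

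Leaving out single libraries gave between 0 and 10 lower at 8 h, 6 and 77 at 30 h, and 0 to 1 higher at 18, 30 and 54 h and 1 to 2 at 66 h. Of all genes 1.06% to 16% were lower at 8 h and 6.56% to 26.9% at 30 h in these fits. The shares higher were 24.8% to 27.7% at 18 h, 8.01% to 28.5% at 30 h, 23% to 26% at 54 h and 19.3% to 24.3% at 66 h. Against day 2, leaving out single libraries gave 13 to 39 lower at 18 h (16.2% to 19.5% of all genes) in untreated organoids. It gave 19 to 46 lower at 42 h (27.4% to 30.3%) and 2 to 7 higher at 78 h (37.7% to 39.3%) there. In RA-treated organoids it gave 0 to 1 higher at 18 h (32.2% to 34.5%) and 1 to 2 at 78 h (37.7% to 39.9%). The difference of effects ran from 1 to 8 lower (10.1% to 13.1% of all genes) and from 0 to 3 higher (10.7% to 16.1%). Some named genes changed sign. At 8 h the ranges were -0.14 to 0.016 for Rplp1, -0.15 to 0.25 for Rpl7, -0.12 to 0.029 for Rpl10, -0.14 to 0.024 for Rpl22l1, -0.16 to 0.018 for Rps27, -0.087 to 0.055 for Rps4l, -0.068 to 0.078 for Rpl13a, -0.11 to 0.008 for Rps20, -0.11 to 0.0031 for Rps15a, -0.20 to 0.20 for Rps24 and -0.10 to 0.31 for Rpl15. At 18 h they were -0.060 to 0.008 for Rps20 and -0.063 to 0.033 for Rps15a. At 30 h they were -0.55 to 0.11 for Rps3, -0.37 to 0.17 for Rplp1, -0.20 to 0.12 for Rpl22, -0.32 to 0.41 for Rpl22l1, -0.12 to 0.45 for Rpl39, -0.039 to 0.46 for Rps27, -0.31 to 0.39 for Rps4l, -0.27 to 0.0036 for Rpl13a, -0.25 to 0.20 for Rps20 and -0.079 to 0.13 for Rps15a. At 78 h the range was -0.0066 to 0.027 for Rpl7l1.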
